A study of Bos taurus with 10 samples.

Results

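The cholesterol synthesis enzymes are described here through 5 genes, ACAT2, IDI1, LSS, MSMO1 and EBP, measured across 5 tissues of the lactating cow. They were taken by current gene symbol from the 4366 named genes of a bovine cDNA microarray, and all 5 had a value on all 10 arrays. The tissues were liver, mammary gland, and subcutaneous, mesenteric and omental adipose tissue of Bos taurus, all collected at peak lactation. No treatment, breed or age is given in the sources used here, and the labels speak of a cow without saying whether the tissues came from the same one. The same RNA of each tissue was hybridised on 2 arrays, once in the dye Cy3 and once in Cy5, against a reference RNA mixed from tissues. Each tissue is therefore 1 sample. The spread between animals is unknown, and no test was made. Fewer cells of a type and less RNA per cell cannot be told apart in such tissue samples.

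Cholesterol is built from acetyl-CoA in the cytosol and the endoplasmic reticulum. Acetyl-CoA is joined into mevalonate, mevalonate is turned into isoprenoid diphosphates, these are joined into squalene, and squalene is closed into lanosterol and trimmed to cholesterol. The genes of the pathway are activated together by the transcription factor SREBP-2 when the membranes of the endoplasmic reticulum run short of sterol. Liver makes cholesterol for lipoproteins and bile acids, and the mammary gland places cholesterol in the membrane of the milk fat globule, taking it from blood lipoproteins or making it.

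A level below is the log2 ratio of a tissue to the reference RNA after the median of its array was subtracted, so that 0 is the array's typical element. A difference between tissues was computed within each dye orientation, and the 2 results were averaged. The error given after ± is the distance of either orientation from their mean. It covers labelling and hybridisation only. A gene was counted as higher or lower where the mean difference reached 1 log2 unit (2-fold) with the same sign in both orientations, which is called the size rule below. The labels do not state which dye is on top of the deposited ratio. Cy5 over Cy3 was assumed, and this direction is likely rather than certain. Under it 6 of 7 measured hepatocyte markers were higher in liver than in mammary gland, with TF, RBP4 and SLC10A1 among them. The remaining one, APOA1, stood at 0.53 ± 0.52 and did not pass. Of 11 mammary epithelial and milk markers 9 were higher in mammary gland. The keratin gene KRT18 went the other way, higher in liver by 1.09 ± 0.09, and KRT8 did not pass, at -0.90 in Cy3 and 0.37 in Cy5 for liver minus mammary gland. With the opposite direction every difference changes sign. Of 10 listed adipocyte markers only LIPE, CEBPA and CAV1 were measured, so the adipose label was checked on few genes: LIPE averaged 2.18 in mesenteric, 1.04 in omental and -0.34 in subcutaneous adipose tissue, against -0.08 in liver. The subcutaneous sample was thus not above liver for this lipase of fat cells, whereas CAV1 stood at -0.55 there against -2.86 in liver, and CEBPA at 1.12 against 0.93. In mammary gland LIPE stood at 0.04, CAV1 at -0.38 and CEBPA at -0.18. The subcutaneous sample was therefore above mammary gland for CEBPA alone. An array held 16416 spots, of which 15970 to 16245 had a value, and the naming of elements depends on a print layout worked out from the data. The size rule counted 404 genes higher and 192 lower in liver against mammary gland, 315 and 262 in liver against the adipose mean, 124 and 290 in mammary gland against the adipose mean, 270 and 161 in subcutaneous against visceral adipose tissue, and 36 and 25 in mesenteric against omental adipose tissue. Without centring these counts were 303 and 301, 232 and 435, 116 and 312, 858 and 40, and 19 and 74. After quantile normalisation the split between mammary gland and adipose tissue was 154 and 219.

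Of the 5 genes, 4 were each read by 1 element, and the 2 spots of that element lay close together on every array. IDI1 was read by 2 elements whose spots disagreed. The largest gap between duplicate spots over the 10 arrays was 0.09 log2 units for ACAT2, 0.13 for MSMO1, 0.15 for EBP and 0.22 for LSS. For IDI1 it was 4.81 on the element from source plate 9 and 3.78 on the element from plate 18. The median gap was 0.26 and 1.16 on these elements, larger than on 89.9% and 98.7% of all named elements, whose median was 0.10. On the liver array in Cy3 the spots of the plate 9 element read -0.50 and 4.30, and on the mammary gland array in Cy5 the spots of the plate 18 element read -3.66 and 0.12. Spots lay over 1 log2 unit apart on 4 of 10 arrays for the first element and on 6 of the 8 arrays with both spots for the second. The values of IDI1 below are given with this limit. Signal over background was not analysed here, and its part in the disagreement was not tested.

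**Figure D1:**
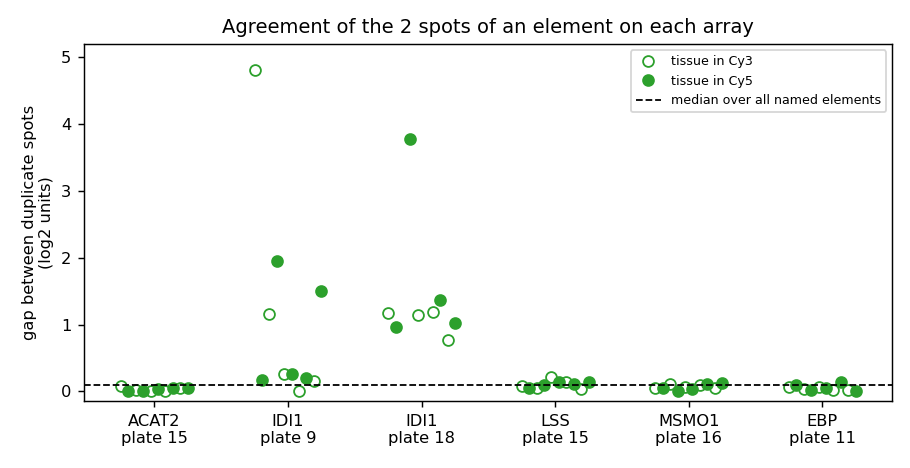
Gap between the 2 spots of an element on each of the 10 arrays (log2 units, vertical axis) for the 6 elements of the 5 enzymes, with open points for arrays that carried the tissue in Cy3, filled points for Cy5 and a dashed line at the median of all named elements (0.10). Both IDI1 elements hold gaps above 1, up to 4.81, while no gap of the other 4 genes passes 0.22.

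ACAT2 (Entrez gene 512044) encodes the cytosolic thiolase that joins a pair of acetyl-CoA molecules into acetoacetyl-CoA, the entry to the mevalonate pathway. It is a different gene from SOAT2, the sterol esterifying enzyme that has shared its name. In liver ACAT2 read 1.14 with the tissue in Cy3 and 1.25 in Cy5. In mammary gland it read -2.55 and -2.90, in subcutaneous adipose tissue -1.72 and -1.43, in mesenteric adipose tissue -1.02 and -0.90, and in omental adipose tissue -0.55 and -0.56. Liver was the highest tissue and mammary gland the lowest on both sets of arrays. The order of the means was liver, omental, mesenteric, subcutaneous and mammary gland, and each step had the same sign in both orientations: 1.76 ± 0.06 for liver minus omental, -0.40 ± 0.07 for mesenteric minus omental, -0.61 ± 0.08 for subcutaneous minus mesenteric and -1.15 ± 0.32 for mammary gland minus subcutaneous adipose tissue. The span of 3.92 log2 units between liver and mammary gland, a 15.2-fold difference, was wider than the span over tissues of 98.3% of named genes. In the RefSeq gene table ACAT2 overlaps the chaperonin gene TCP1, which has no named element here, and a share of TCP1 signal in the ACAT2 element was not tested.

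IDI1 (514293) encodes isopentenyl diphosphate isomerase, which interconverts the building blocks of all isoprenoids. The mean of its elements was 1.25 and -1.13 in liver with the tissue in Cy3 and in Cy5, -0.72 and -2.21 in mammary gland, 0.07 and -1.56 in subcutaneous, 0.25 and -0.88 in mesenteric, and -0.16 and 0.08 in omental adipose tissue. The 2 arrays of liver lay 2.37 apart, which is more than the span of 1.53 between the highest and lowest tissue mean. Its elements also differed from each other. Liver minus mammary gland was 1.13 ± 0.96 on the plate 9 element and 1.92 ± 0.08 on the plate 18 element, and liver minus the adipose mean was 0.52 ± 1.90 and 0.33 ± 0.37. In an alternative chosen after seeing the data, element values with spots over 1 log2 unit apart were taken as missing. No difference of IDI1 was then left for liver against mammary gland or the adipose mean. Liver had no Cy3 value left, and mammary gland and subcutaneous adipose tissue had no Cy5 value left. In Cy5 the liver value stayed at -1.13, below -0.88 in mesenteric and -0.83 in omental adipose tissue. These arrays therefore do not settle the place of liver in the order for IDI1.

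LSS (615906) encodes lanosterol synthase, which folds oxidosqualene into lanosterol, the first sterol of the pathway. LSS read 1.30 in Cy3 and 2.01 in Cy5 in liver, -0.26 and 0.79 in mammary gland, -0.89 and -0.32 in subcutaneous, -0.64 and -0.03 in mesenteric, and -0.05 and 0.45 in omental adipose tissue. Liver was highest in both orientations. Mammary gland and omental adipose tissue were not told apart (0.06 ± 0.27, with opposite signs in the 2 orientations), whereas mesenteric lay below omental by -0.54 ± 0.05 and subcutaneous below mesenteric adipose tissue by -0.27 ± 0.02.

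MSMO1 (504481) encodes the methylsterol monooxygenase that starts the removal of methyl groups from the sterol ring. MSMO1 read 1.85 and 2.88 in liver, -0.71 and 0.83 in mammary gland, -2.29 and -1.23 in subcutaneous, -2.29 and -1.25 in mesenteric, and -2.01 and -0.89 in omental adipose tissue, with the Cy3 array first. The tissues formed 3 levels, with liver above mammary gland and mammary gland above every adipose depot in both orientations. Subcutaneous and mesenteric adipose tissue differed by 0.01 ± 0.01. The span of 4.14 log2 units between liver and mesenteric adipose tissue was wider than that of 98.5% of named genes.

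EBP (515569) encodes the emopamil-binding protein, the sterol isomerase that moves a double bond within the sterol ring late in the pathway. EBP read 1.71 in Cy3 and 3.36 in Cy5 in liver, -0.68 and 0.99 in mammary gland, -0.79 and 0.42 in subcutaneous, -0.61 and 0.84 in mesenteric, and -0.20 and 1.31 in omental adipose tissue. Within either dye liver was the highest tissue. Omental adipose tissue came next, with mammary gland below it by -0.40 ± 0.08. Mammary gland and mesenteric adipose tissue were not told apart (0.04 ± 0.10, with opposite signs), and subcutaneous lay below mesenteric adipose tissue by -0.30 ± 0.12.

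Part of the gap between the 2 arrays of a tissue was shared by all tissues. The Cy5 array read above the Cy3 array by 1.21 to 1.66 log2 units for EBP, by 1.03 to 1.55 for MSMO1 and by 0.51 to 1.05 for LSS, while the same gap ran from -0.35 to 0.29 for ACAT2 and from -2.37 to 0.24 for IDI1. A gap common to the tissues cancels in a difference within 1 orientation. The gap of ACAT2, like that of IDI1, did not keep 1 sign over the tissues.

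**Figure D2:**
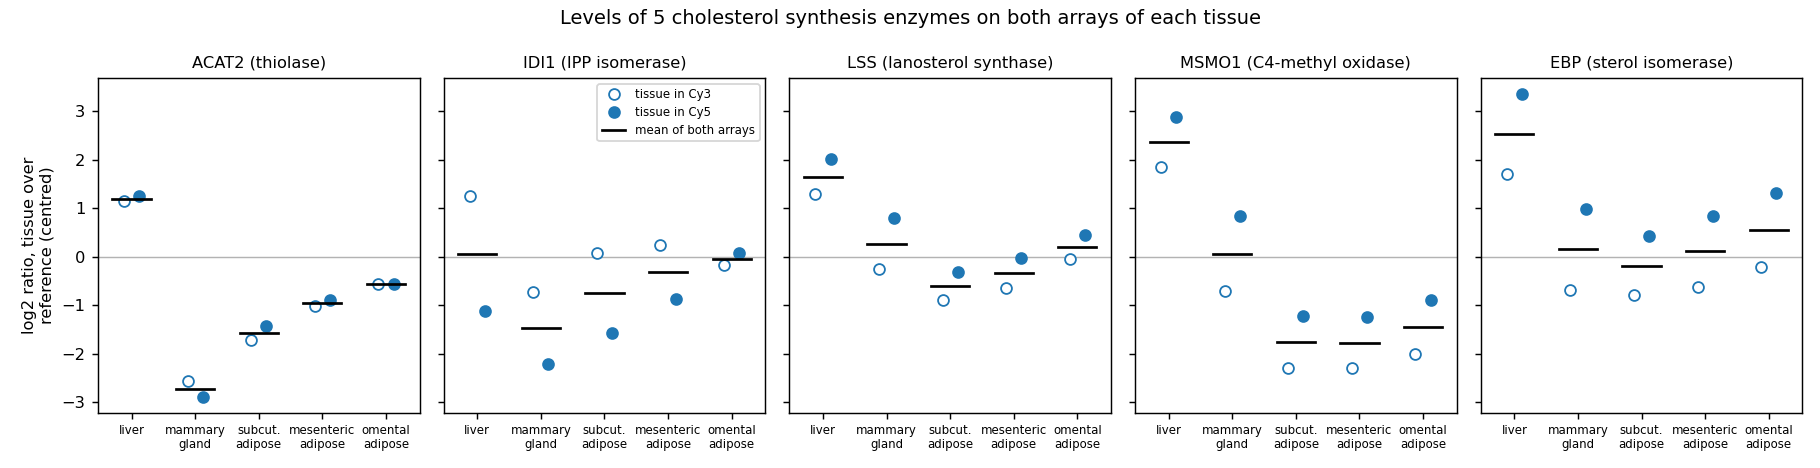
Centred log2 ratio of tissue over reference (vertical axis) for each enzyme in liver, mammary gland, and subcutaneous, mesenteric and omental adipose tissue, with an open point for the array with the tissue in Cy3, a filled point for Cy5 and a line at their mean. Liver stands above all other tissues on both arrays for ACAT2, LSS, MSMO1 and EBP, and the 2 arrays of liver lie 2.37 apart for IDI1.

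The first comparison asked how liver and mammary gland, both active in lipid metabolism at peak lactation, differ in the enzymes. By the size rule liver was higher for all 5, where 9.34% of 4325 genes were higher and 4.44% lower. The median difference of the 5 was 2.31 log2 units, against -0.01 over all genes. ACAT2 differed by 3.69 in Cy3 and 4.15 in Cy5 and took place 30 of 4325 from the top. EBP differed by 2.38 in both orientations (5.21-fold, place 97), and MSMO1 by 2.56 and 2.05 (4.95-fold, place 101). LSS, at 1.56 and 1.22, differed by less (2.62-fold, place 259). IDI1 differed by 1.97 and 1.09 and passed the rule, with the disagreement between spots described above. The error between orientations was 0.16 at the median of all genes and 0.56 at their 95th percentile. That of IDI1 was 0.44 for the mean of its elements, but 0.96 on the plate 9 element and 0.08 on the plate 18 element.

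Against the mean of the 3 adipose depots 4 of the 5 enzymes were higher in liver, where 7.28% of 4326 genes were higher and 6.06% lower. The median difference was 2.23, against -0.06 over all genes. MSMO1 differed most among the 5, by 4.05 in Cy3 and 4.01 in Cy5 (16.3-fold, place 15 of 4326). EBP differed by 2.24 and 2.51 (5.19-fold), ACAT2 by 2.24 and 2.22 (4.69-fold) and LSS by 1.83 and 1.98 (3.74-fold). These 4 passed the rule against each depot on its own as well, with 3.82 to 4.14 for MSMO1, 1.98 to 2.72 for EBP, 1.76 to 2.77 for ACAT2 and 1.45 to 2.26 for LSS. IDI1 stood at 0.43 ± 0.77, with 1.19 in Cy3 and -0.34 in Cy5, and did not pass.

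The enzymes parted in mammary gland against adipose tissue. MSMO1 was higher in mammary gland by 1.72 ± 0.24 (3.30-fold) and ACAT2 lower by -1.70 ± 0.24 (3.24-fold), and both differences had the same sign against each of the 3 depots and passed the rule there. MSMO1 minus each depot ran from 1.51 ± 0.21 for omental to 1.83 ± 0.25 for mesenteric adipose tissue, and ACAT2 from -2.17 ± 0.17 for omental to -1.15 ± 0.32 for subcutaneous adipose tissue. MSMO1 took place 41 of 4313 from the top and ACAT2 place 4245. IDI1 was lower at -1.10 ± 0.33, and lost the rule with an omental array left out (-0.88), after quantile normalisation (-0.82) and on the Cy3 arrays alone (-0.78). LSS at 0.51 ± 0.25 and EBP at -0.01 ± 0.14 did not pass. In this comparison 2.88% of genes were higher and 6.72% lower, and the median of the 5 enzymes was -0.01, against -0.05 over all genes. The first enzyme of the pathway and a later one lay on opposite sides.

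**Figure D3:**
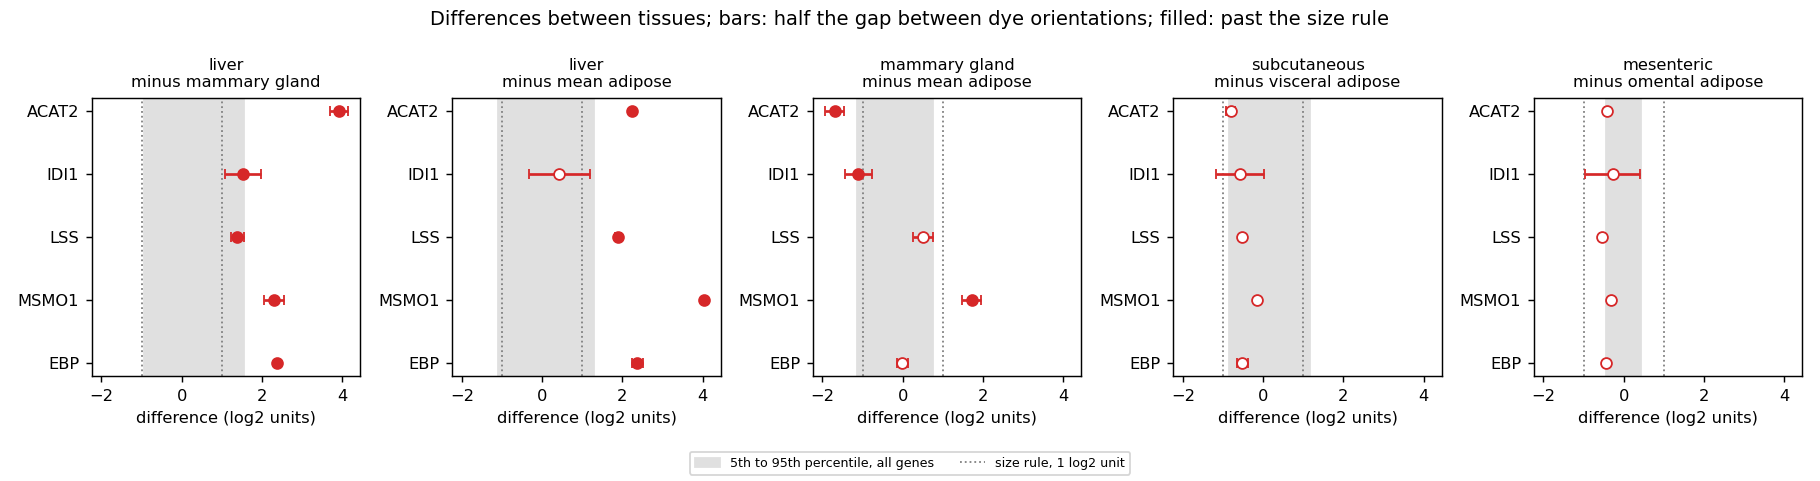
Difference between tissues in log2 units (horizontal axis) for the 5 enzymes in each comparison, with bars that end at the values of the 2 dye orientations, filled points for those past the size rule, a grey band from the 5th to the 95th percentile of all genes and dotted lines at 1 and -1. All 5 points lie beyond 1 in liver minus mammary gland, 4 in liver minus the adipose mean, and ACAT2 and MSMO1 lie on opposite sides in mammary gland minus the adipose mean.

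Among single depots 1 enzyme passed the rule in 1 pair: ACAT2 was lower in subcutaneous than in omental adipose tissue, by -1.16 in Cy3 and -0.87 in Cy5 (mean -1.02 ± 0.15, place 4198 of 4342 from the top), just past the threshold. The share of all genes past the rule in that pair was not counted. Whether the call holds without centring was not tested. In subcutaneous against visceral adipose tissue, the mean of mesenteric and omental, 6.23% of 4332 genes were higher and 3.72% lower, and no enzyme passed. ACAT2 stood at -0.81 ± 0.12, LSS at -0.54 ± 0.00, EBP at -0.52 ± 0.14 and MSMO1 at -0.15 ± 0.01, all below 0 in both orientations, and IDI1 at -0.57 ± 0.60 changed sign. Macrophage markers differed in the same samples: 7 of 10 were higher in the subcutaneous sample and 1 lower (median 2.76), and 2 of the 3 measured adipocyte markers were lower (median -1.95). Their part in the enzyme values was not tested. Without centring the median of all genes stood at 0.64, and ACAT2 stood at -0.19, LSS at 0.09, EBP at 0.11 and MSMO1 at 0.48. The mean of the last 3 thus changed sign, and ACAT2 kept a mean below 0 but not the same sign in both orientations. The lower values in subcutaneous adipose tissue therefore hold only relative to the median gene.

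In mesenteric against omental adipose tissue 0.829% of 4340 genes were higher and 0.576% lower, and no enzyme passed here either. LSS stood at -0.54 ± 0.05, EBP at -0.44 ± 0.03, ACAT2 at -0.40 ± 0.07 and MSMO1 at -0.32 ± 0.04. Each was lower in mesenteric adipose tissue in both orientations, at places 4207, 4125, 4074 and 3924 of 4340 from the top. The median of the 5 was -0.40, against -0.01 over all genes, and 90% of genes lay between -0.44 and 0.42. IDI1 stood at -0.28 ± 0.68. Without centring the 4 stable enzymes ran from -0.85 to -0.63, where the median of all genes was -0.33.

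The other genes of sterol metabolism were taken from lists of known pathway members. Of 23 genes of cholesterol synthesis, 7 were measured: the 5 enzymes, ERG28 and LBR. ERG28, a scaffold that in yeast holds the demethylating enzymes together, was higher in liver than in adipose tissue by 1.59 ± 0.29 and stood at 0.95 ± 0.15 against mammary gland, just short of the rule. Its mean level was 0.80 in liver, -0.15 in mammary gland, and -0.75, -0.92 and -0.70 in subcutaneous, mesenteric and omental adipose tissue, with mammary gland between liver and the depots as for MSMO1. LBR, a sterol reductase that is also a receptor for lamins in the nuclear envelope, stood at 0.07 ± 0.03 against mammary gland and -0.30 ± 0.01 against adipose tissue.

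Of 13 listed regulators only SREBF1, INSIG2 and UBE2G2 were measured, and none was higher in liver by the rule. Of all genes 9.34% were higher in liver than in mammary gland and 7.28% higher than in the adipose mean, so none among 3 is near that share. INSIG2, which holds the SREBP precursors in the endoplasmic reticulum, stood at 0.88 ± 0.21 against mammary gland and 0.96 ± 0.03 against adipose tissue. SREBF1, whose protein mainly drives fatty acid synthesis, was lower in liver than in the adipose mean by -1.16 ± 0.31. Its level was -0.55 in liver, against 2.96 in subcutaneous, -0.82 in mesenteric and -0.30 in omental adipose tissue, so the subcutaneous sample carried this call, and its difference from visceral adipose tissue was 1.61 in Cy3 and 5.43 in Cy5. Against mammary gland it passed with values of -3.77 in Cy3 and -0.11 in Cy5, too far apart to give a size. The isoprenoid branch turns the same diphosphates into prenyl groups, dolichol and ubiquinone. Of its 8 measured genes none passed in any of the 5 comparisons, and the medians ran from -0.19 to 0.11. At most 9.34% of all genes were higher and 6.72% lower in a comparison, so a count of 0 among 8 is near the share of all genes. COQ2, which prenylates the ubiquinone ring, averaged 1.09 in liver minus the adipose mean but had opposite signs in the 2 orientations (2.37 in Cy3 and -0.19 in Cy5). FNTA, a subunit of the prenyl transferases, stood at 0.77 ± 0.01 in liver against mammary gland, and GGPS1, which makes geranylgeranyl diphosphate, at -0.52 ± 0.03 in liver against adipose tissue.

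Genes of sterol transport and efflux did not move as a group. Of 8 uptake, transport and esterification genes 2 were higher in liver than in mammary gland and 2 lower, where 9.34% of all genes were higher and 4.44% lower. SCP2, a peroxisomal thiolase and sterol carrier, was higher in liver by 3.07 ± 0.19 against mammary gland and by 2.65 ± 0.00 against adipose tissue. LIPA, the lysosomal lipase that frees cholesterol from its esters, was higher in liver than in mammary gland by 2.17 ± 0.13 and lower in liver than in the adipose mean, at place 4066 of 4326 from the top. Its level was 1.07 in liver, against 5.29 in subcutaneous, 0.18 in mesenteric and 0.76 in omental adipose tissue, so liver lay below the subcutaneous depot alone. NPC2, a lysosomal sterol carrier, was lower in liver than in mammary gland by -1.06 ± 0.36. CAV1, the coat protein of caveolae, was lower there too, by -2.48 ± 0.40. In subcutaneous against visceral adipose tissue 4 of the 8 were higher: LIPA by 4.82 ± 0.12, NPC2 by 2.01 ± 0.08, SOAT1, which esterifies cholesterol, by 1.91 ± 0.09, and NPC1 by 1.14 ± 0.09, beside the macrophage markers given above. CAV1 was lower there, by -2.13 ± 0.06. Of all genes 6.23% were higher and 3.72% lower in subcutaneous against visceral adipose tissue. ABCA1, which loads cholesterol onto apolipoprotein A-I, was lower in mammary gland than in the other tissues, by -1.73 ± 0.14 against adipose tissue, and liver minus mammary gland was 1.41 ± 0.10. SLC10A1, the bile acid importer of hepatocytes, was higher in liver by 5.56 ± 0.09 against mammary gland. It is among the hepatocyte markers by which the direction of the ratio was judged likely, so its sign is not a separate result. APOA1, the gene of apolipoprotein A-I, was higher in subcutaneous than in visceral adipose tissue by 1.64 ± 0.14. Its level was 1.86 in subcutaneous adipose tissue, against 0.85 in liver.

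The few genes measured from the list of acetyl-CoA supply and ketone bodies were lower in liver than in the adipose mean. ACLY, which releases acetyl-CoA from citrate, ACSS1, which activates acetate in mitochondria, and CS, citrate synthase, were the 3 measured of 11 listed genes. All 3 were lower in liver than in the adipose mean, ACLY by -1.93 ± 0.17, ACSS1 by -1.34 ± 0.14 and CS by -2.45 ± 0.18. In that comparison 6.06% of all genes were lower. The level of ACLY was -0.87 in liver, against -0.36 in subcutaneous, 1.24 in mesenteric and 2.30 in omental adipose tissue, so the visceral depots carried its call, and it was lower in subcutaneous than in visceral adipose tissue by -2.13 ± 0.04. ACSS1 (-2.62 ± 0.61) and CS (-1.50 ± 0.00) were also lower in liver than in mammary gland, while ACLY stood at -0.29 ± 0.30. ACLY was lower in mesenteric than in omental adipose tissue by -1.06 ± 0.11, the same sign as the enzymes.

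**Figure D4:**
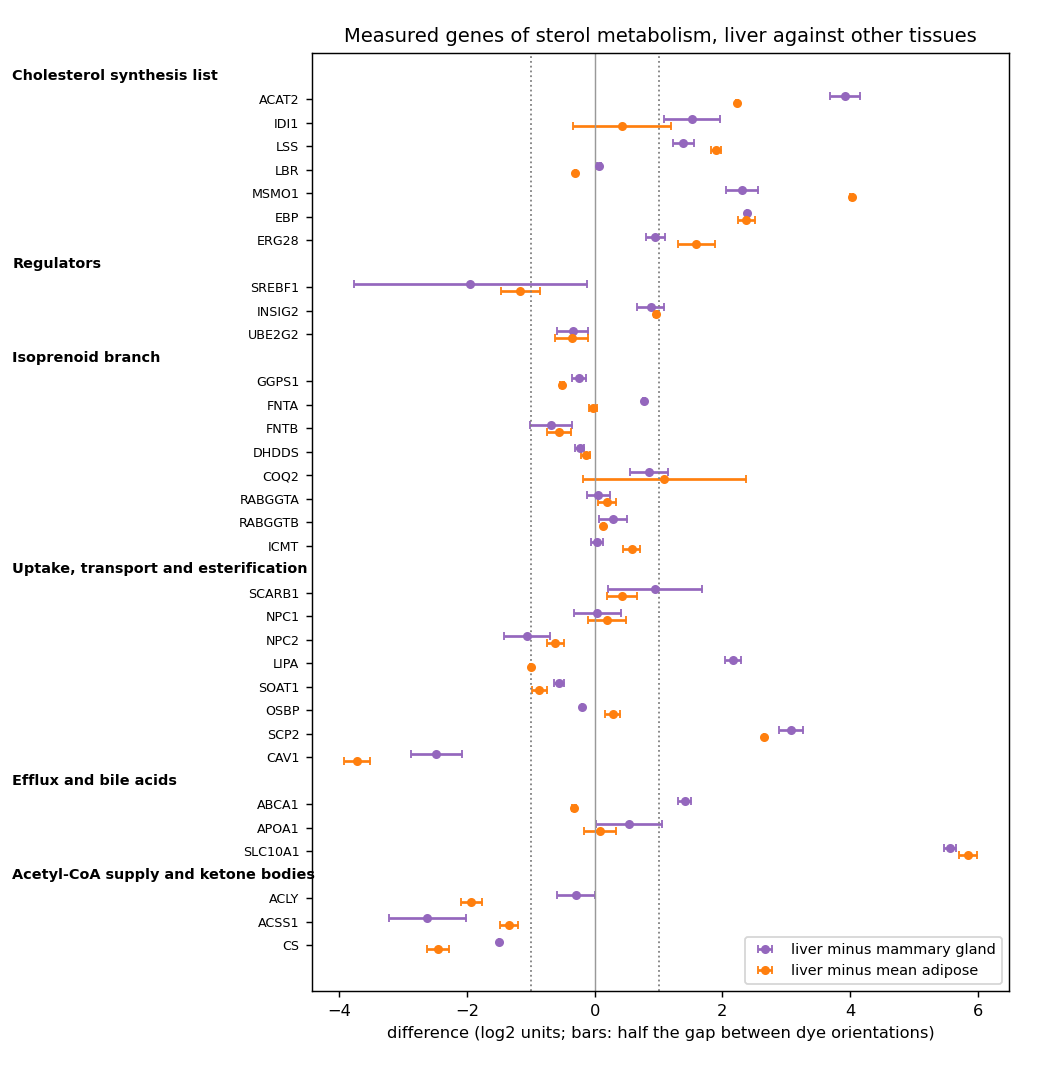
Difference in log2 units (horizontal axis) of each measured gene of the sterol lists, with liver minus mammary gland in purple and liver minus the adipose mean in orange, bars that end at the values of the 2 dye orientations and dotted lines at 1 and -1. ACAT2, LSS, MSMO1 and EBP lie right of 1 in both comparisons, and the acetyl-CoA genes lie left of 0. The isoprenoid branch has no gene past the rule, a count near the share of all genes.

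Likeness of profiles was measured as the root mean square distance over the 5 tissue means, each gene set to a mean of 0, among 4306 other genes. It is a description over 5 samples. LSS and EBP were the closest of the 10 pairs of enzymes, at 0.31 log2 units, and IDI1 and MSMO1 the farthest, at 1.60. LSS took place 32 among the genes nearest to EBP, and EBP place 29 among those nearest to LSS. No enzyme was among the 3 nearest genes of another. Nearest to ACAT2 were GLO1 (0.20), which detoxifies methylglyoxal, the annexin gene ANXA6 (0.29) and PHYH (0.29), which breaks down phytanic acid in peroxisomes. GLO1 averaged 2.28 in liver, -1.31 in mammary gland, and -0.76, 0.24 and 0.70 in subcutaneous, mesenteric and omental adipose tissue, in the same order of tissues as ACAT2. Nearest to MSMO1 were FMO5 (0.18), a flavin monooxygenase, PIK3C2G (0.22) and CD59 (0.41), an inhibitor of complement. FMO5 averaged 3.90 in liver, 1.28 in mammary gland, and -0.61, -0.26 and -0.34 in the depots in that order. Nearest to EBP were GOT2 (0.16), the mitochondrial aspartate aminotransferase, SLC25A20 (0.17), the mitochondrial carnitine carrier, and MMACHC (0.19), which processes cobalamin. Nearest to LSS were KRT18 (0.17), a keratin of simple epithelia, RASSF6 (0.18) and LMAN1 (0.22), a cargo receptor between the endoplasmic reticulum and the Golgi. Nearest to IDI1 were PLPP1 (0.09), HSPA9 (0.09), the mitochondrial chaperone, and LOC784007 (0.12), and for these the spot disagreement of IDI1 applies.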

How the data were processed

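The deposited values are log2 ratios of the 2 dyes of each array. The base is not named and was read from a ceiling of 16.61, the log2 of 100000. The authors used a ScanArray 4000 scanner and GenePix 4.0 software, per the series' design text. How background was handled, and any normalisation, is not stated there. The 94 ceiling values were taken as missing, beside 2402 missing values. Signs were turned on the 5 arrays that carried tissue RNA in Cy3, since the 2 arrays of a tissue correlated at -0.78 to -0.66 across spots. Each array was centred on its median, which ran from -1.32 to 0.71 as deposited. For the omental Cy5 array a description and a dye label disagree, and the dye label was used.

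Neighbouring rows were averaged as duplicate spots (correlation 0.83 to 0.92 on each array). Annotation identifiers at face value gave unrelated profiles for clones of 1 gene (mean cosine -0.00 over 1358 pairs). The table was therefore read as 48 blocks of 171 elements and the annotation as 16 blocks of 528 entries, joined through plates of 384 wells. Among 3072 annotation and 768 table layouts, scored without the 5 enzymes, the best gave a mean cosine of 0.43 and the next different one 0.07. Over 422 pairs with clear profiles it was 0.71 (median 0.95). Plates 1 to 20 were named, giving 5472 elements and 4366 genes; 5467 matched the RefSeq table of ARS-UCD2.0 by Entrez identifier. The name of any 1 element may still be wrong, and ACAT2, LSS, MSMO1 and EBP have no second clone here. Elements of a gene were averaged.

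The members, lists and rules were chosen with earlier results of these data known. Named genes were the 5 enzymes, every measured gene of the cholesterol synthesis list, genes of the other lists past the size rule in a comparison, and the 3 nearest profiles of each enzyme. INSIG2, UBE2G2, FNTA, GGPS1 and COQ2 fall outside this rule and were chosen after their values were seen. The layout search and the size rule were tested on simulated data. Python 3.11.15, numpy 2.4.6 and pandas 2.3.3 were used. The number of arrays limits the precision. No sequences are printed and no coordinates are given, since no build is named for the files.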

Additional observations from a re-analysis of the deposited data

How the results depend on the processing

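The calls of ACAT2, LSS, MSMO1 and EBP in the 5 comparisons, 20 in all, were the same under each of 9 alternatives: either dye orientation alone, no centring, quantile normalisation, ceiling values kept, the median over elements, the omental Cy5 array left out, names of all plates, and spots over 1 log2 unit apart taken as missing. The last, and leaving out IDI1, were chosen after seeing the data; either gave a median over the remaining enzymes of 2.30 in liver minus adipose tissue, and leaving out IDI1 gave 0.25 in mammary gland minus adipose tissue. Some alternatives could not change the calls of ACAT2, LSS, MSMO1 and EBP. Each of these is read by 1 element with spot gaps of at most 0.22, so the median over elements and the spot filter return the same values. Ceiling values and the names of all plates hardly changed them, and the omental Cy5 array does not enter liver minus mammary gland. Each call that changed, apart from other thresholds, was one of IDI1. On the Cy3 arrays alone IDI1 was higher in liver than in adipose tissue (1.19), on the Cy5 arrays alone it was lower in subcutaneous adipose tissue (-1.17), so that 1 enzyme passed there against 0 on the Cy3 arrays, and it lost its call in mammary gland against adipose tissue in 3 alternatives. A threshold of 2 log2 units left 3 enzymes higher in liver than in mammary gland and 0 past it in mammary gland against adipose tissue. A threshold of 0.5 gave 3 lower in subcutaneous than in visceral and 1 lower in mesenteric than in omental adipose tissue. The 5th percentile of all genes was -0.86 in the former comparison and -0.44 in the latter. The share of all genes past these other thresholds was not counted, so the counts are not read as a result about the enzymes.

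The median over the enzymes kept its sign in both liver comparisons. In liver minus mammary gland it ran from 2.05 to 2.38 over single orientations and was 1.81 after quantile normalisation. In liver minus adipose tissue it was 1.97 without centring, 1.87 after quantile normalisation and 2.33 without the omental Cy5 array. In subcutaneous minus visceral adipose tissue it was 0.0906 without centring, where the median of all genes was 0.64. In mesenteric minus omental adipose tissue it was -0.72 without centring and -0.47 to -0.41 over single orientations. Signal over background is unknown here, and its part in the IDI1 values was not tested. No paired analysis was possible because each tissue is 1 sample.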
